A study of Mus musculus with 16 samples.

Results

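The 10 genes described here, whose products act when myoblasts touch, adhere and fuse, were followed through differentiation of WT and Fam134bKO C2C12 cells. They were chosen by name, as the rows of the deposited table with the symbols Cdh15, Cdh2, Myof, Adam12, Jam3, Cdon, Boc, Neo1 and Ncam1, together with myomaker, which the table lists under the older symbol Tmem8c (current symbol Mymk). All 10 were found among the 31053 rows of the table, and all 10 were among the 10767 genes that reached 10 normalized counts in 4 or more of the 16 samples and were tested.

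C2C12 is a mouse skeletal myoblast line that forms multinucleated myotubes in culture. Messenger RNA was sequenced from 4 samples each of WT myoblasts, WT myotubes, Fam134bKO myoblasts and Fam134bKO myotubes. All 4 groups were kept in DMEM with 10% FBS. The myotubes formed after confluence without a change of serum, so that stage and time in culture cannot be told apart. Fam134b encodes an ER-phagy receptor. The knockout was made by lentiviral CRISPR-Cas9, from a vector that takes a pair of guides, and drug selection. The study lists 4 guides for the gene and does not say which of them the sequenced line carried. No clone is named, the sources used here do not say whether WT cells carried Cas9 or a vector, and the effect of the lost gene and that of the edited line cannot be told apart. The sample titles give genotype and stage, a separate label field lists the genotype of each sample as unknown, and the labels give no day. Samples of a group are labelled as biological replicates, and the study describes its replicates in general as independent, without saying how the RNA samples were kept apart, so p-values measure the spread between these samples.

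Fusion of myoblasts proceeds by recognition, adhesion, alignment and merging of the plasma membranes. Classical cadherins hold neighbouring cells together through homophilic binding, and members of the immunoglobulin superfamily such as NCAM and the JAM proteins add further contacts. CDON and BOC are cell surface receptors that associate with cadherins and with neogenin, the product of Neo1, and promote myogenic differentiation on cell contact. Membrane merging in vertebrate muscle requires myomaker together with the small membrane protein myomixer, listed here as Gm7325 (Mymx), while myoferlin, a ferlin with several C2 domains, takes part in fusion and membrane repair.

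Many muscle genes carry E-boxes, sequences of the form CANNTG, and factors of the MyoD family bind some of these forms. The members' promoters were searched for CANNTG in any form. RefSeq promoter sequences (GRCm38.p6) were at hand for 4 of the 10 members, and the 250 bases before the start of each gene were searched. CANNTG reads the same on both strands, so each match counts once. The Cdh15 promoter held 3 matches, and as many or more were present in 12.2% of the 32851 promoters searched. The promoters of Cdon, Neo1 and Myof held 0, like 33.8% of all promoters. The 3 matches of Cdh15 are shown with 10 bases on either side and the motif in capitals, on the plus strand. They lie at chr8:122848128-122848153, chr8:122848229-122848254 and chr8:122848332-122848357, with the first base of the motif at -236, -135 and -32 from the RefSeq start. GENCODE M21 starts the gene further upstream and places all 3 in the 5′ UTR of its first exon.
Cdh15 at -236: gcactgatcaCATATGctgtcactca
Cdh15 at -135: ggcccacctaCATGTGctgtcactca
Cdh15 at -32: ccccaccacaCACGTGcagtcccttg
These matches describe letters only and do not say which factor could bind, and binding was not measured in this series.

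The values are normalized counts, that is reads divided by a factor of each sample, and log2 changes are on the scale log2(normalized count + 1). Between 1484750 and 3287461 reads were counted on genes per sample. Fam134bKO myotube replicates 4 and 2 had the fewest reads, and this group also had the widest spread between replicates, with a correlation of log2 values of 0.879 to 0.950 against 0.927 to 0.984 in the other groups. Detection was set at 3 reads, equal to 2.49 to 5.99 normalized counts, a limit that covers counting error only. Fam134b itself fell from 207 ± 42.0 to 27.5 ± 5.49 normalized counts in myoblasts and from 232 ± 61.6 to 41.8 ± 14 in myotubes (SD, n = 4 each), with no overlap at either stage.

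The muscle label was checked with 12 identity genes, from Pax7, Myf5 and Myod1 to structural genes such as Ckm and Acta1. Their summed level was 2298 to 3363 normalized counts in myoblasts and 24390 to 36500 in myotubes of the WT, against 243 to 312 and 11140 to 14970 in the knockout. Pax7 and Myog were at 0 in Fam134bKO myoblasts, where 6 of the 12 genes had at most 3 reads in every sample. Of the 11 tested, 10 (90.9%) were called lower in Fam134bKO than in WT myoblasts and 7 (63.6%) in Fam134bKO than in WT myotubes. Of all genes tested, 8.5% and 13.7% were called lower in these comparisons. Fibroblast markers summed to 3201 to 5958, 11470 to 20140, 5388 to 16970 and 15210 to 31750 normalized counts in WT myoblasts, WT myotubes, Fam134bKO myoblasts and Fam134bKO myotubes. Of these 8 genes 4 were tested, and 2 were called higher in Fam134bKO than in WT cells at each stage. Of all genes tested, 7.26% were called higher in Fam134bKO myoblasts and 9.74% in Fam134bKO myotubes. Thy1, Lum and Dpt had at most 3 reads in every sample. Adipocyte markers (8 genes, 3 tested) summed to 75.7 to 451 and osteoblast and chondrocyte markers (8 genes, 2 tested) to 295 to 1103, with Adipoq, Plin1, Lep, Ibsp and Alpl at 0 in all groups. Knockout samples were called higher in 2 and 1 of the tested adipocyte markers in myoblasts and myotubes, and in 1 of the osteoblast and chondrocyte markers at each stage. The shares of all genes are the same 7.26% and 9.74%, and so few tested markers give only a coarse comparison. These shifts stand beside every knockout difference given here, and their part in it was not tested. In bulk RNA, fewer cells of a type and less RNA per cell cannot be told apart.

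**Figure D1:**
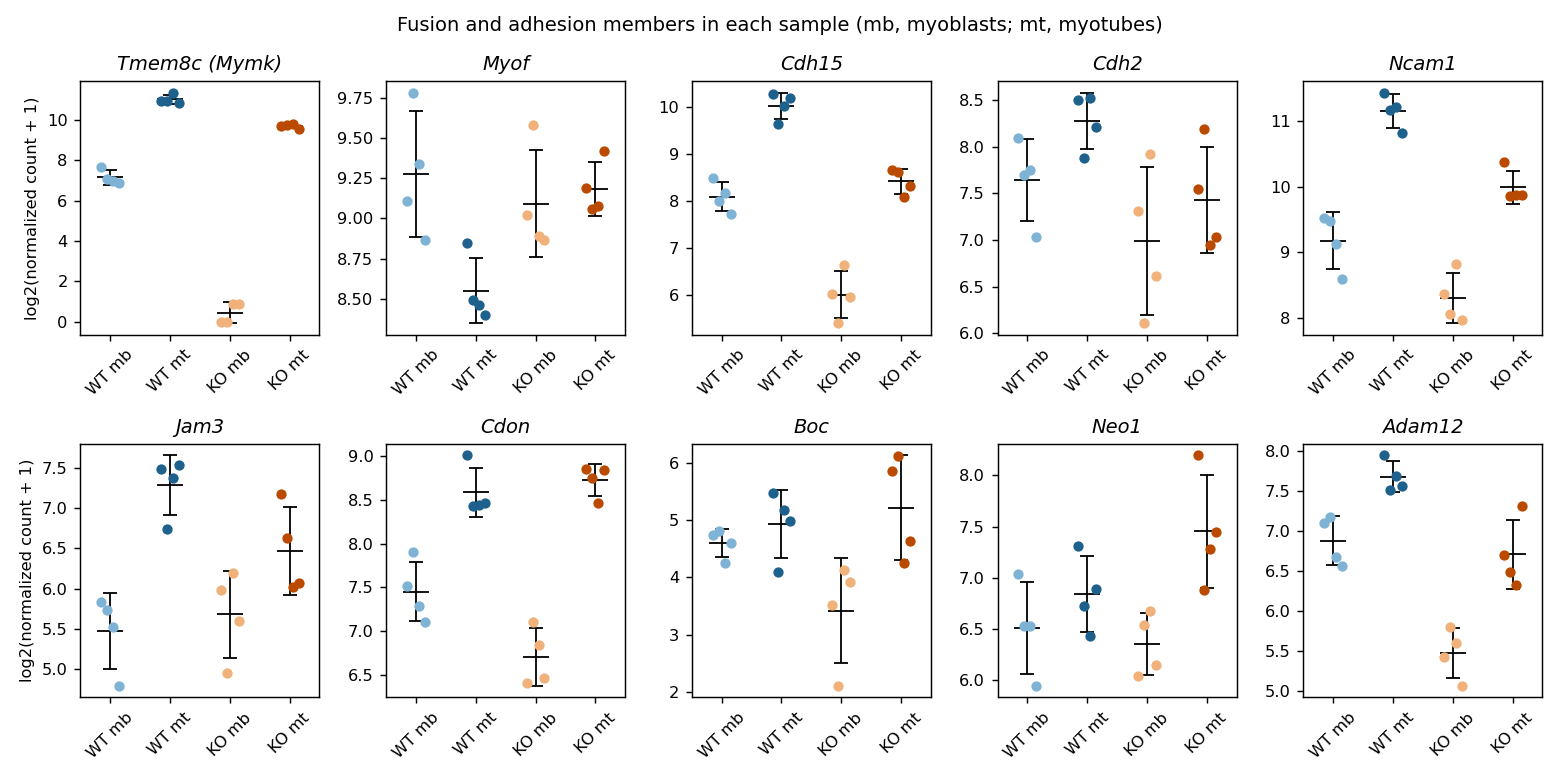
Level of the 10 members in each of the 16 samples, as log2(normalized count + 1), with WT and Fam134bKO (KO) myoblasts (mb) and myotubes (mt) along the x axis. Points are samples and bars are the group mean ± SD (n = 4), each panel has its own y axis, and Tmem8c lies near 0 in KO myoblasts alone.

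Myomaker (Tmem8c, chr2:27061636-27072179, minus strand, GRCm38) showed the widest range of the 10. In WT myoblasts its normalized counts in replicates 1 to 4 were 204, 135, 126 and 115, and in WT myotubes 1975, 1959, 2629 and 1867. In Fam134bKO myoblasts 0, 0, 1 and 1 reads were counted, a mean normalized count of 0.425, which is under the floor of detection. In Fam134bKO myotubes the values were 841, 865, 902 and 745. No sample of any group overlapped another group, and Fam134bKO myotubes lay between WT myoblasts and WT myotubes. The gene rose 14.5-fold on differentiation of WT cells (log2 change 3.87, standard error 0.23, limma with Benjamini-Hochberg adjustment over all genes tested, adjusted p = 9.1e-11) and at least 319-fold on differentiation of Fam134bKO cells (adjusted p = 4.66e-18). Fam134bKO myoblasts were at least 55.2-fold below WT myoblasts (adjusted p = 2.36e-15), and Fam134bKO myotubes reached 39.8% of the WT level (log2 change -1.32, standard error 0.23, adjusted p = 0.000255).

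Its partner myomixer (Gm7325), which is not one of the 10 members, ran through the groups in the same order. It had 74.3 ± 10.6 normalized counts in WT myoblasts, 633 ± 231 in WT myotubes, 1.5 ± 0.445 in Fam134bKO myoblasts and 189 ± 37.7 in Fam134bKO myotubes (SD, n = 4 each). The 4 Fam134bKO myoblast libraries held 1 or 2 reads each. The gene was at least 28.3-fold lower in Fam134bKO than in WT myoblasts (adjusted p = 4.29e-12) and lower by a log2 difference of -1.68 in myotubes (standard error 0.25, adjusted p = 6.59e-05).

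The regulators Myod1 and Myog are given beside the fusion genes because they are known activators of muscle genes. Myod1 had 236 to 375 normalized counts in WT myoblasts and 5.81 to 15.8 in Fam134bKO myoblasts, and 632 to 908 against 220 to 439 in myotubes. Myog was at 92.1 to 149 in WT myoblasts and at 0 reads in every Fam134bKO myoblast sample, and at 915 to 1347 against 487 to 940 in myotubes. The genotypes did not overlap at either stage for Myod1, and for Myog they overlapped in myotubes. By real-time PCR during differentiation, the study itself reports Myog mRNA as significantly higher in Fam134bKO cells than in controls. In the sequenced samples, whose labels give no day, Myog was not higher in the knockout at either stage, and the reason was not tested.

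Myof (chr19:37899036-38043577, minus strand) was the 1 member called lower on WT differentiation. Its normalized counts were 552, 880, 648 and 465 in WT myoblasts and 459, 360, 352 and 336 in WT myotubes, so every myotube sample lay below every myoblast sample. Its log2 change was -0.72 (standard error 0.19, adjusted p = 0.0104). Fam134bKO myoblasts had 519, 765, 474 and 466 and Fam134bKO myotubes 582, 531, 538 and 683, which overlap, with a log2 change of 0.09 (adjusted p = 0.743). Myof was the 1 member called higher in Fam134bKO than in WT myotubes, by 0.63 (standard error 0.19, adjusted p = 0.0218), with all 4 knockout samples above all 4 WT samples. That call was lost without WT myotube replicate 3, WT myotube replicate 4 or Fam134bKO myotube replicate 4, at adjusted p = 0.0588, 0.0675 and 0.0581.

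Cdh15 (M-cadherin, chr8:122847966-122867397, plus strand), the classical cadherin of myogenic cells, was low in the knockout at both stages. Its normalized counts in replicates 1 to 4 were 357, 254, 285 and 211 in WT myoblasts and 1228, 794, 1026 and 1154 in WT myotubes. In the knockout they were 63.9, 41.5, 98.9 and 61.7 in myoblasts and 404, 390, 272 and 318 in myotubes. Knockout and WT samples did not overlap at either stage, while Fam134bKO myotubes overlapped WT myoblasts. The gene rose on differentiation by 1.93 in WT (adjusted p = 2.42e-06) and by 2.41 in Fam134bKO cells, as log2 changes (standard error 0.23 each, adjusted p = 4.77e-08). Fam134bKO cells had 24.0% of the WT level as myoblasts (log2 change -2.08, adjusted p = 5.09e-07) and 32.9% as myotubes (log2 change -1.60, adjusted p = 3.12e-05).

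Cdh2 (N-cadherin, chr18:16588877-16809246, minus strand), the other classical cadherin of muscle cells, passed the test in none of these comparisons. It ran from 130 to 271 normalized counts in myoblasts and from 235 to 366 in myotubes of the WT, and from 68.1 to 242 and 122 to 290 in the knockout. Every neighbouring pair of groups overlapped. The log2 changes were 0.64 in WT differentiation (standard error 0.32, adjusted p = 0.166), 0.44 in knockout differentiation (adjusted p = 0.313), -0.65 between genotypes in myoblasts (adjusted p = 0.200) and -0.85 in myotubes (adjusted p = 0.0624). Cdh2 became called lower in Fam134bKO myotubes when Fam134bKO myotube replicate 2 or Fam134bKO myoblast replicate 2 or 3 was left out, at adjusted p = 0.0163, 0.0370 and 0.0371, and lower in Fam134bKO myoblasts without Fam134bKO myoblast replicate 3, at 0.0436. With only the 8 samples compared or with sample weights, Cdh2 was called higher on WT differentiation (adjusted p = 0.0306 and 0.0451) and lower in Fam134bKO myotubes (adjusted p = 0.0444 and 0.0323).

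The ratio of Cdh15 to Cdh2 normalized counts within each sample was 1.38 ± 0.172 in WT myoblasts, 3.38 ± 0.458 in WT myotubes, 0.516 ± 0.126 in Fam134bKO myoblasts and 2.05 ± 0.484 in Fam134bKO myotubes (SD, n = 4 each). Values ran from 1.23 to 1.62, 2.80 to 3.92, 0.406 to 0.638 and 1.34 to 2.45. WT myotubes and Fam134bKO myoblasts each stood apart from all other groups, and the lowest Fam134bKO myotube sample lay among the WT myoblasts. The ratio was chosen after the values were seen and was not tested. Counts of the 2 genes were not put on a common scale of abundance, so the size of the ratio says nothing of which cadherin is more abundant.

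**Figure D2:**
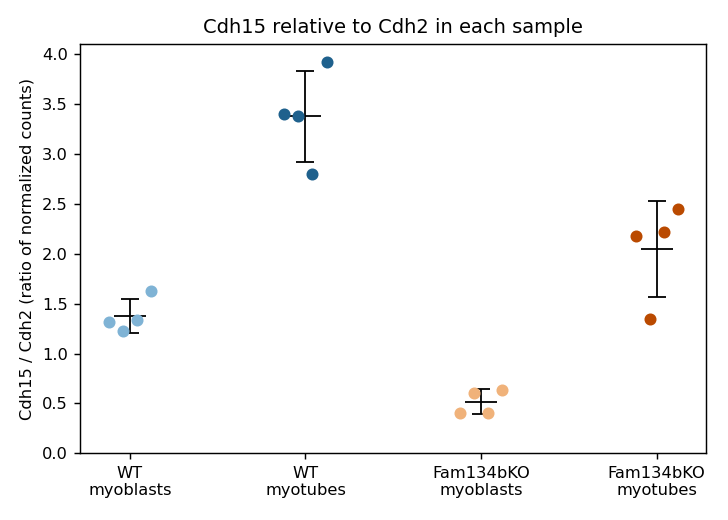
Ratio of Cdh15 to Cdh2 normalized counts in each sample, by group, with the y axis starting at 0. Points are samples and bars the mean ± SD (n = 4), with the 4 Fam134bKO myoblast samples at 0.406 to 0.638 and the 4 WT myotube samples at 2.80 to 3.92.

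Ncam1 (neural cell adhesion molecule, chr9:49502136-49798925, minus strand) rose on differentiation in both genotypes and stayed lower in the knockout. WT myoblasts had 739, 710, 558 and 384 normalized counts and WT myotubes 2777, 2307, 2394 and 1805. Fam134bKO myoblasts had 331, 267, 453 and 249 and Fam134bKO myotubes 1326, 928, 942 and 939. In myotubes the genotypes did not overlap, and in myoblasts WT replicate 4 lay below Fam134bKO replicate 3. The log2 changes were 1.98 in WT differentiation (adjusted p = 1.00e-06) and 1.69 in knockout differentiation (adjusted p = 4.36e-06), with a standard error of 0.22 in each comparison of this gene. Against WT, Ncam1 was lower by -0.87 in myoblasts (adjusted p = 0.00722) and by -1.17 in myotubes (adjusted p = 0.000544).

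Jam3 (JAM-C, a junctional adhesion molecule, chr9:27097384-27155421, minus strand) separated the stages in WT cells. It had 56.3, 52.1, 45 and 26.7 normalized counts in WT myoblasts and 179, 106, 165 and 185 in WT myotubes. Fam134bKO myoblasts had 62.1, 29.9, 72.0 and 47.5 and Fam134bKO myotubes 143, 97.8, 63.9 and 65.9, which overlap. The gene rose by 1.82 in WT cells (standard error 0.30, adjusted p = 0.000205). The change of 0.79 in knockout cells was just short of the threshold (adjusted p = 0.0505), as was the difference of -0.82 between the genotypes in myotubes (adjusted p = 0.0566), and both passed under several other settings, such as a pseudocount of 5 (adjusted p = 0.0467 and 0.0460). Jam3 did not pass in myoblasts of the 2 genotypes, with a log2 difference of 0.21 (adjusted p = 0.727).

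Cdon (chr9:35421128-35507652, plus strand), the cell surface receptor that works with cadherins, was lower in knockout myoblasts and reached the WT range in myotubes. WT myoblasts had 182, 238, 155 and 137 normalized counts and WT myotubes 514, 344, 348 and 352. Fam134bKO myoblasts had 84.0, 137.0, 114 and 87.6 and Fam134bKO myotubes 459, 429, 353 and 458. The myoblast groups were apart by a narrow gap, since the highest knockout sample had 137.0 and the lowest WT sample 137.2, and the myotube groups overlapped. Cdon rose by 1.13 in WT (adjusted p = 0.000323) and by 2.02 in Fam134bKO cells (standard error 0.20 each, adjusted p = 9.92e-08). It was lower by -0.75 in Fam134bKO myoblasts (adjusted p = 0.0117), a call lost without WT myoblast replicate 2 or Fam134bKO myoblast replicate 1 (adjusted p = 0.0572 and 0.0527), and differed by 0.14 in myotubes (adjusted p = 0.662).

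Boc (chr16:44485049-44558897, minus strand), the relative and partner of Cdon, rested on few reads, 4 to 59 per sample. Its ranges were 18 to 27 normalized counts in myoblasts and 16.2 to 43.2 in myotubes of the WT, and 3.32 to 16.5 and 18 to 68.6 in the knockout. The knockout stages did not overlap, and the gene rose by 1.80 on knockout differentiation (standard error 0.45, adjusted p = 0.00397) against a change of 0.34 in WT cells that did not pass (adjusted p = 0.634). All 4 Fam134bKO myoblast samples lay below all 4 WT samples, but the difference of -1.18 did not pass the test (adjusted p = 0.0822). It passed with only the 8 samples compared (adjusted p = 0.0391), with sample weights (-0.85, adjusted p = 0.0208) and without both Fam134bKO myotube libraries of lowest depth (adjusted p = 0.0475). In myotubes the difference was 0.28 (adjusted p = 0.696).

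Neo1 (neogenin, chr9:58874687-59036441, minus strand), a receptor for netrins and RGM proteins, was called on knockout differentiation, as Boc was. Its ranges were 60.6 to 130 normalized counts in myoblasts and 85.5 to 158 in myotubes of the WT, and 64.7 to 101 and 117 to 292 in the knockout. The gene rose on knockout differentiation by 1.10 (standard error 0.27, adjusted p = 0.0035), with no overlap of the stages, and changed by 0.33 in WT cells (adjusted p = 0.402). Between genotypes the log2 differences were -0.16 in myoblasts (adjusted p = 0.775) and 0.61 in myotubes (adjusted p = 0.107), where leaving out Fam134bKO myotube replicate 2 gave 0.80 and a call (adjusted p = 0.0350).

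Adam12 (meltrin alpha, chr7:133883199-134232146, minus strand), a membrane-anchored metalloprotease of fusing myoblasts, was lower in the knockout at both stages. WT myoblasts had 136, 144, 101 and 93.6 normalized counts and WT myotubes 245, 182, 205 and 188. Fam134bKO myoblasts had 42.0, 54.8, 47.7 and 32.5 and Fam134bKO myotubes 103, 89.0, 79.2 and 158. The genotypes were apart at each stage, and the stages were apart in each genotype. Knockout levels were 37.4% of WT in myoblasts (log2 change -1.40, adjusted p = 9.61e-05) and 52.2% in myotubes (log2 change -0.97, adjusted p = 0.00344), with a standard error of 0.23 throughout. Adam12 rose by 1.23 in Fam134bKO (adjusted p = 0.00025) and by 0.80 in WT cells (adjusted p = 0.0138), and the WT call was lost without WT myoblast replicate 3 or 4 or WT myotube replicate 1 (adjusted p 0.0503 to 0.0573).

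**Figure D3:**
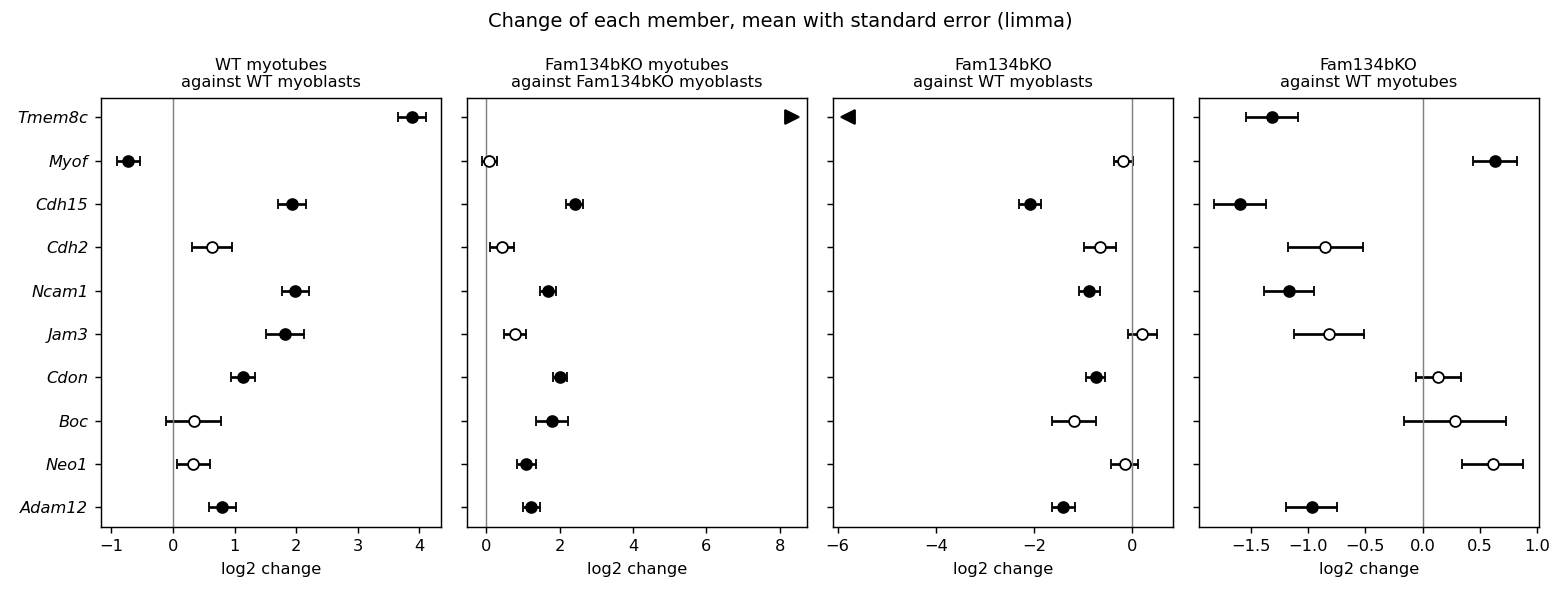
Log2 change of each member in the 4 comparisons, first group minus second, with standard errors from limma. Filled symbols passed an adjusted p of 0.05 and open symbols did not, triangles are lower bounds against Fam134bKO myoblasts for Tmem8c and carry no error bar, and Cdh15 lies at -2.08 and -1.60 in the panels comparing genotypes. The x axes differ between panels.

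Counted over the 10 members, 6 were called higher and 1, Myof, lower in WT myotubes than in WT myoblasts, where 13.8% of all genes tested were called higher and 9.16% lower. The 7 called members did not overlap between the stages. The share of all genes without overlap was not counted, so this describes the members only. The median change of all 10 was 0.97 on the log2 scale against -0.01 over all genes tested. In Fam134bKO cells 7 members were called higher and 0 lower by limma, also 0 lower at an unadjusted p under 0.05, against 17.3% and 16.1% of all genes, with a median of 1.46 against -0.02. Cdh15, Adam12, Cdon, Ncam1 and Tmem8c were called higher in both genotypes, Jam3 in WT cells and Boc and Neo1 in Fam134bKO cells.

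Against WT myoblasts, 5 members (Cdh15, Adam12, Cdon, Ncam1 and Tmem8c) were called lower in Fam134bKO myoblasts and 0 higher, also 0 at an unadjusted p under 0.05, where 8.5% of all genes were called lower and 7.26% higher. The median member difference was -0.81 against -0.01 over all genes. Cdh15, Adam12, Cdon, Boc and Tmem8c did not overlap between the genotypes, which again describes the members only, without a count over all genes. Against WT myotubes, 4 members (Cdh15, Adam12, Ncam1 and Tmem8c) were called lower and 1 (Myof) higher in Fam134bKO myotubes, where 13.7% of all genes were called lower and 9.74% higher, with a median of -0.83 against -0.07. These 5 did not overlap between the genotypes, also without a count over all genes. The comparisons of genotypes and of stages share samples. Without Fam134bKO myotube replicates 2 and 4, Tmem8c, Cdh15, Adam12 and Ncam1 were still called lower, Cdh2 (-1.03, adjusted p = 0.0498) and Neo1 (0.90, adjusted p = 0.0408) were called too, and Myof was not (0.58, adjusted p = 0.0877).

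Whether a gene changed differently on differentiation in the 2 genotypes was tested as an interaction. Of all genes, 1.97% were called with a more positive change in Fam134bKO cells and 1.48% with a more negative one. Among the members Tmem8c was called, with an interaction of 5.39 (standard error 0.32, adjusted p = 3.14e-10), a size that depends on the pseudocount because Fam134bKO myoblasts lay under the floor. The folds behind it were 14.5 in WT and at least 319 in Fam134bKO cells. Cdon (0.89, adjusted p = 0.0927), Myof (0.82, adjusted p = 0.112), Jam3 (-1.03, adjusted p = 0.216), Boc (1.46, adjusted p = 0.232) and Neo1 (0.77, adjusted p = 0.304) did not pass, so that a rise called in 1 genotype alone was not shown to differ between the genotypes for Jam3, Boc or Neo1. The interactions of Cdh15 (0.48), Adam12 (0.43), Ncam1 (-0.29) and Cdh2 (-0.20) had adjusted p of 0.461 to 0.870.

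The 6 further lists held 135 genes of the same processes, of which 133 were in the table and 95 were tested. Together 27 (28.4%) were called higher and 4 (4.21%) lower in WT myotubes than in WT myoblasts, with a median log2 change of 0.15, where 13.8% and 9.16% of all genes tested were called. On knockout differentiation 31 (32.6%) were called higher and 3 (3.16%) lower, with a median of 0.26, where 17.3% and 16.1% of all genes were called. Against WT, 8 (8.42%) were called higher and 9 (9.47%) lower in Fam134bKO myoblasts (median -0.06), near the 7.26% and 8.5% of all genes. In Fam134bKO myotubes 11 (11.6%) were called higher and 12 (12.6%) lower (median 0.03), near the 9.74% and 13.7% of all genes.

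Among 17 tested fusion membrane and repair proteins, 8 (47.1%, against 13.8% of all genes) were called higher on WT differentiation, and 6 (35.3%, against 17.3%) higher and 2 (11.8%, against 16.1%) lower on knockout differentiation. Against WT, 3 (17.6%) were called higher and 2 (11.8%) lower in Fam134bKO myoblasts, where 7.26% and 8.5% of all genes were called. In Fam134bKO myotubes 2 (11.8%) were called higher and 2 (11.8%) lower, near the 9.74% and 13.7% of all genes. Cav3, the caveolin of muscle, rose from 4.68 to 154 normalized counts in WT cells (log2 change 4.84, adjusted p = 1.56e-09) and at least 16.4-fold in Fam134bKO cells, from 0 to 43.1. In Fam134bKO myotubes Cav3 was below WT by -1.85 (adjusted p = 0.000515). Cav1, the caveolin of many other cell types, went the other way, with 530 ± 53.6 against 176 ± 12.7 normalized counts in myoblasts (log2 change 1.58, adjusted p = 4.31e-07) and 972 ± 249 against 268 ± 28.8 in myotubes (log2 change 1.82, adjusted p = 2.68e-07). Dysf, the muscle ferlin dysferlin, was called for the interaction (-1.33, standard error 0.34, adjusted p = 0.0295), with 76.9 and 140 normalized counts in WT myoblasts and myotubes and 164 and 125 in the knockout. The tetraspanin Cd82 rose on WT differentiation by 1.99 (adjusted p = 0.000231), and its mean was also higher in Fam134bKO myotubes than myoblasts, at 262 against 78.3 normalized counts.

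Of 9 tested genes of the Ig-domain and JAM list, 3 (33.3%) were called lower in Fam134bKO cells at each stage, against 8.5% of all genes in myoblasts and 13.7% in myotubes. St8sia2, which adds polysialic acid to NCAM, had 131 ± 37.4 normalized counts in WT and 4.66 ± 1.37 in Fam134bKO myoblasts (log2 change -4.52, adjusted p = 9.35e-11), and 188 ± 20.5 against 43.0 ± 18.1 in myotubes (log2 change -2.18, adjusted p = 1.32e-05). Its interaction passed at 2.34 (standard error 0.40, adjusted p = 0.00119). Jam2, which encodes the binding partner of JAM-C, was lower by -1.98 in myoblasts (adjusted p = 1.01e-06) and -1.12 in myotubes (adjusted p = 0.00104), and Alcam, an adhesion molecule of the Ig superfamily, by -1.69 (adjusted p = 6.36e-05) and -0.99 (adjusted p = 0.00919). On differentiation, 2 genes (22.2%, against 13.8% of all genes) were called higher in WT and 6 (66.7%, against 17.3%) in Fam134bKO cells, led in both by F11r (JAM-A), with 1.94 (adjusted p = 7.54e-05) and 3.14 (adjusted p = 5.57e-08).

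Of 11 tested genes of the cadherin and catenin list, 5 (45.5%) were called higher and 1 (9.09%) lower on differentiation in each genotype, against 13.8% and 9.16% of all genes in WT and 17.3% and 16.1% in Fam134bKO cells. Cdh13 (T-cadherin, a cadherin without a transmembrane segment) rose by 2.31 in WT (adjusted p = 4.79e-06) and 2.11 in Fam134bKO cells (adjusted p = 7.83e-06). Cdh11, a cadherin of mesenchymal cells, rose by 2.80 (adjusted p = 0.000144) and 1.47 (adjusted p = 0.0166). It was higher in Fam134bKO than in WT myoblasts, at 34.2 ± 13.7 against 5.91 ± 3.85 normalized counts (log2 change 2.46, adjusted p = 0.000451). No other gene of the list was called between genotypes in myoblasts. That is 9.09% called higher, near the 7.26% of all genes, and 0 called lower, against 8.5%. In myotubes the nectin Pvrl2 was lower in the knockout (log2 change -1.26, adjusted p = 0.00745) and Ctnna1, the alpha-catenin that links cadherins to actin, was higher (log2 change 0.59, adjusted p = 0.0178). Ctnnd1, which encodes p120-catenin, was called lower on knockout differentiation, with a log2 change of -2.96 (standard error 0.93, adjusted p = 0.0181). The myotube samples spread from 0 to 137 normalized counts, with an SD of 3.30 on the log2 scale against 0.53 in Fam134bKO myoblasts. The size of the change thus depends on the pseudocount and on the library at 0 reads. The ratio of the group means was 0.31.

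Of 18 tested partners of Cdon, Boc and Neo1, 6 (33.3%) were called higher on differentiation in each genotype, against 13.8% of all genes in WT and 17.3% in Fam134bKO cells. Between genotypes, 3 (16.7%) were called higher and 2 (11.1%) lower in Fam134bKO myoblasts, where 7.26% and 8.5% of all genes were called. In Fam134bKO myotubes 4 (22.2%) were called higher and 2 (11.1%) lower, where 9.74% and 13.7% of all genes were called. Ntn5, a gene of the netrin family, rose from 0.722 to 15.9 normalized counts in WT (at least 5.29-fold, adjusted p = 5.23e-05) and from 0.425 to 7.34 in Fam134bKO cells (at least 2.8-fold, adjusted p = 0.000375). Ntn4, another netrin, was lower in Fam134bKO than in WT myotubes, at 4.05 against 14.5 normalized counts (log2 change -2.05, adjusted p = 0.0206). The mean of 4.05 lies under the 3-read floor of Fam134bKO myotube replicates 2 and 4 (4.38 and 5.99). Hfe2 (hemojuvelin), of the RGM family of neogenin ligands and co-receptors, had 18.1 normalized counts in WT myoblasts, 257 in WT myotubes, 0.417 in Fam134bKO myoblasts and 76.7 in Fam134bKO myotubes, and was at least 6.89-fold lower in Fam134bKO myoblasts (adjusted p = 1.42e-08) and lower by -1.69 in myotubes (adjusted p = 0.000868). Rgma was higher in the knockout instead, by 0.94 in myoblasts (adjusted p = 0.015) and 1.56 in myotubes (adjusted p = 0.000185). The netrin receptor gene Unc5c was higher by 1.71 in Fam134bKO myoblasts (adjusted p = 0.00122).

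Of 6 tested ADAM genes, Adam19 (meltrin beta) rose by 1.49 in WT (adjusted p = 0.000566) and 2.61 in Fam134bKO cells (adjusted p = 3.24e-07), and was lower by -1.34 in Fam134bKO than in WT myoblasts (adjusted p = 0.00146). Adam23, which lacks protease activity and acts in adhesion, had 0 to 2 reads in WT myoblasts and was at least 11.2-fold higher in Fam134bKO myoblasts (adjusted p = 2.06e-06), with 33.5 ± 5.43 normalized counts. In myotubes it was at 61.3 ± 24.8 against 4.98 ± 4.70 (log2 change 3.65, adjusted p = 2.58e-05).

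Among 34 tested genes of actin signalling in fusion, the medians stayed between -0.18 and 0.10 in the 4 comparisons. Cyfip2, a subunit of the WAVE complex that drives actin branching, rose from 3.78 to 30.9 normalized counts in WT (log2 change 2.71, adjusted p = 0.000648) and from 1.67 to 18.3 in Fam134bKO cells (log2 change 3.33, adjusted p = 3.61e-05). The mean of 1.67 lies under the floor of detection, so the size of the knockout change depends on the pseudocount. Rhob, a small GTPase, rose by 1.67 in WT (adjusted p = 4.03e-06) and 3.0 in Fam134bKO cells (adjusted p = 2.49e-10), and its interaction passed at 1.33 (standard error 0.29, adjusted p = 0.0102). Fam134bKO myotubes had 869 ± 274 normalized counts of Rhob against 414 ± 101 in WT. The actin regulators Vasp and Pak3 were lower in Fam134bKO than in WT myotubes, by -0.79 (adjusted p = 0.00595) and -0.78 (adjusted p = 0.0162). In myoblasts 1 gene (2.94%) was called between the genotypes, where 8.5% of all genes were called lower and 7.26% higher. It was the focal adhesion gene Tns1, which was lower in the knockout by -0.78 (adjusted p = 0.00398).

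**Figure D4:**
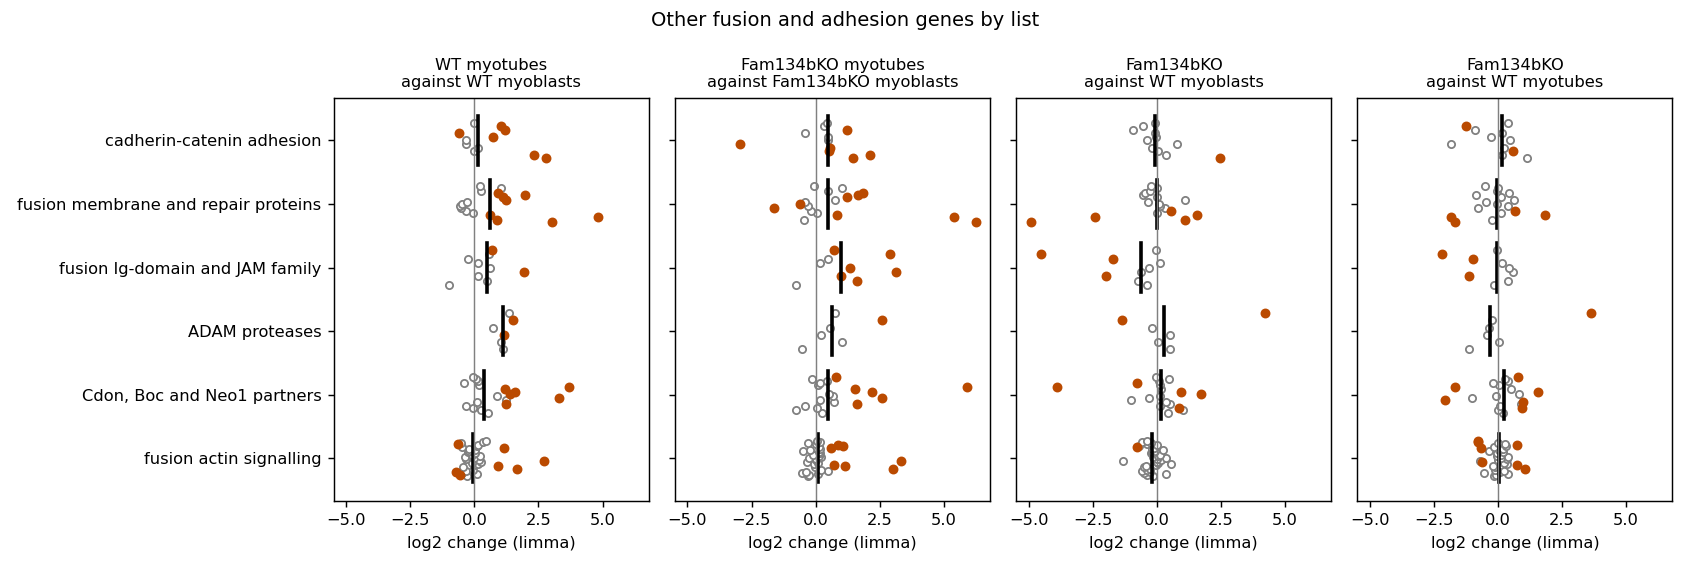
Log2 change (limma) of each tested gene of the 6 further lists in the 4 comparisons. Filled points passed an adjusted p of 0.05, open points did not, and black bars are list medians, which lie close to 0 for the 34 actin signalling genes in all panels.

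For each member, the 3 tested genes with the most similar pattern were taken as those with the smallest root mean square difference of centred log2 values over the 16 samples, as a description. For Tmem8c these were Tnnc2 (0.376), Mylpf (0.386) and Myog (0.466), where the spread of Tmem8c itself was 4.09 on the same scale. Cdh15, with a spread of 1.46, was closest to Npnt (0.313), Tmem38a (0.385) and Ip6k3 (0.417), and Ncam1, with 1.09, to Atp2a2 (0.234), Pbxip1 (0.304) and Nav2 (0.313). Cdon lay near Inppl1 (0.218), Hacd1 (0.250) and Sdc1 (0.263), Adam12 near AI467606 (0.306), Sh3glb1 (0.307) and Nes (0.321), and Jam3 near Tmem37 (0.288), Notch3 (0.295) and Bsg (0.318). The nearest genes of the other 4 were Adgrl3 for Cdh2 (0.244), Smchd1 for Myof (0.192), Hspa13 for Boc (0.453) and Tor1a for Neo1 (0.239). The spreads of Cdon, Adam12 and Jam3 were 0.869, 0.836 and 0.832. Those of Cdh2, Myof, Boc and Neo1 were 0.670, 0.376, 0.925 and 0.561, so a small distance partly reflects a small spread. No member was among the 3 nearest of another, and the closest pair of members was Adam12 and Ncam1 at 0.547.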

How the data were processed

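The deposited values are on a log2 scale, which the authors reached from gene counts scaled per sample and raised by 1. For 100% of the values above 0 the linear value was a whole multiple of 1 step per sample, within 0.01, which gave the reads behind each value. Per the labels and the study's methods, libraries were made with the NEGEDIA Digital mRNA-seq service and read from 1 end, and reads were demultiplexed with bcl2fastq, trimmed with bbduk, aligned with STAR 2.6.0a to mm10 and counted with HTSeq. Whether counting used strand, and the tool for normalization, are not given in the sources used here. Antisense genes that overlap members and are in the table held at most 2 reads in any sample.

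Genes reaching 10 normalized counts in 4 or more samples were fitted with limma 3.58.1 in R 4.3.3, with 4 group means and a trended empirical Bayes variance, so that all groups share 1 spread per gene. P-values are two-sided, were adjusted by Benjamini-Hochberg over all 10767 genes tested, and genes were called under 0.05. The procedure was tested on simulated data. The tests used the deposited log2 values, and tests on the recovered read counts were not run. Where no library of a group exceeded 3 reads, folds are lower bounds: the mean of the higher group divided by the highest 3-read floor among the libraries of the lower group. Setting such genes at these bounds left the medians given for the members and the 6 lists together unchanged.

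Groups were taken from the sample titles, and all value columns were mapped. The members and lists were chosen with earlier results of these data known. All members are named, and genes of each further list were taken from the up to 3 called genes with the largest absolute log2 change per comparison, of which not all are given. Coordinates are from GENCODE M21 (GRCm38, the assembly of mm10), and promoter sequences from RefSeq (GRCm38.p6). Alternatives were pseudocounts of 0.5 and 5, no filter, a minimum of 50, total scaling, quantile normalization, a replicate block, only the 8 samples compared, sample weights, an adjusted p under 0.01, an absolute log2 change of at least 1, each sample left out, and, added after seeing the data, both Fam134bKO myotube libraries of lowest depth left out.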

Additional observations from a re-analysis of the deposited data

Results flagged for a closer look

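In 3 of the 40 combinations of member and group, 1 sample lay far from the other 3, judged on the log2 values by its gap to the nearest sample over the range of the group (Dixon's 95% critical value for 4 samples). Chance alone marks about 1 in 20 such groups. Cdon was high in WT myotube replicate 1, at 514 normalized counts against 344 to 352 (ratio 0.942). Ncam1 was high in Fam134bKO myotube replicate 1, at 1326 against 928 to 942 (0.958), and Tmem8c in WT myotube replicate 3, at 2629 against 1867 to 1975 (0.835). The rise of Tmem8c on differentiation differed between the genotypes, with an interaction of 5.39 on the log2 scale by limma (adjusted p = 3.14e-10). Fam134bKO myoblasts held 0 or 1 read while WT myoblasts held 126 to 221.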

How the results depend on the processing

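Of 1385 member changes recomputed under the alternatives, 1324 kept their direction and call, 36 became called, 19 lost a call and 6 changed sign. None of the 6 was called. With sample weights, Boc between genotypes in myotubes changed from 0.28 to -0.0056. With each sample left out, it ranged from -0.0175 (without Fam134bKO myotube replicate 2) to 0.607, Neo1 between genotypes in myoblasts from -0.345 to 0.0185 (without WT myoblast replicate 1), Jam3 there from -0.0182 (without WT myoblast replicate 4) to 0.452, and the Cdh2 interaction from -0.489 to 0.0065 and 0.116 (without WT myoblast replicate 4 and Fam134bKO myoblast replicate 3). The causes were not tested.

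In the order WT differentiation, knockout differentiation, genotype in myoblasts, genotype in myotubes and interaction, 7, 7, 5, 5 and 1 members and 2474, 3591, 1697, 2521 and 371 of all genes were called. With each sample left out, members called ranged over 6 to 7, 7 to 8, 4 to 6, 4 to 7 and 1 to 3, and all genes over 1564 to 2949, 2837 to 3723, 1336 to 1942, 1823 to 2656 and 231 to 521. The 1564 came without WT myotube replicate 1. For the interaction, 242 genes were called without WT myoblast replicate 2 or Fam134bKO myoblast replicate 4, 245 without WT myotube replicate 3 and 231 without Fam134bKO myoblast replicate 1. Among members it called Tmem8c and Cdon without WT myotube replicate 1, and Tmem8c, Cdon and Myof without Fam134bKO myoblast replicate 2. An adjusted p under 0.01 called 1269, 2216, 1041, 1349 and 141 genes. Requiring an absolute log2 change of at least 1 left 1259, 1994, 1018 and 1379 in the first 4 comparisons, and 3 members between genotypes at each stage (Cdh15, Tmem8c and either Adam12 in myoblasts or Ncam1 in myotubes). Fitting only the 8 samples compared gave 2656 genes between genotypes in myoblasts and 1565 in myotubes. Sample weights gave 4683 genes in WT differentiation, 3773 between genotypes in myoblasts and 1221 for the interaction, with 4 members in the last (Myof, Jam3 and Cdon added to Tmem8c). Quantile normalization moved the share of higher calls in WT differentiation from 60.1% to 49.7%. With a minimum of 50, Boc was not tested.

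The replicate number gave no clear pairing of the samples. Deviations from group means correlated by 0.033 on average between same-numbered samples and by -0.011 between others. Correlations over 0.1 were found in 10 of 24 same-numbered pairs and 17 of 72 others, and 7 of 16 samples correlated best with their own number. A weak pairing is not excluded. A replicate block called 7, 8, 5, 6 and 1 members and 2495, 3628, 1678, 2513 and 358 genes. It added Jam3 on knockout differentiation (adjusted p = 0.0383) and between genotypes in myotubes (adjusted p = 0.0435), and changed no other member call. Depth limits Boc and Tmem8c most, with 4 to 19 and 0 to 1 reads per Fam134bKO myoblast library.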
